A study of Mus musculus with 12 samples.

Results

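Circular RNAs (circRNAs) were compared between 24 h and 3 h after middle cerebral artery occlusion (MCAO) in the blood of mice, on 6 of the 12 arrays of the series. The 6 arrays are the 3 labelled 24 hr MCAO and the 3 labelled 3 hr MCAO; the other 6 hold 3 sham-operated mice and 3 mice with MCAO for 5 min, and sham served to read the state at 3 h. All mice were male Balb/c, given as 8 weeks old on the labels, operated under isoflurane, with no transgene, gene deletion or drug treatment given on the labels, and each array held whole-blood RNA from cardiac puncture. A silicon-coated filament in the artery produced the occlusion, and different mice were sampled at each time, so a rise or a fall is a difference between groups of mice and not a course followed in any of them.

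CircRNAs form when a downstream splice donor joins an upstream acceptor, which closes an exon, an intron or a run of both into a ring without free ends. The ring resists the exonuclease RNase R, with which the RNA was digested before Cy3 labelling, and blood cells and platelets hold many circRNAs, as does brain. MCAO cuts the blood supply of much of 1 brain hemisphere and serves as a model of ischemic stroke. The name of the host (parental) gene tells where a circRNA lies, not what it does. In whole blood, fewer cells of a type and less RNA per cell cannot be told apart.

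The 6 arrays lay on 2 slides, and the slides split the 3-h group. Replicates 1 and 2 of 3 h lay with sham on slide 1, and replicate 3 of 3 h lay with the 3 arrays of 24 h on slide 2. Negative control spots had a median raw intensity of 27 on both 3-h arrays of slide 1, and of 83.5 to 101 on the 4 arrays of slide 2. After quantile normalization, replicates 1 and 2 of 3 h differed by a median of 0.20 log2 units per probe, and replicate 3 differed from them by 0.43 and 0.52. Replicate 3 of 3 h differed from the 24-h arrays by 0.50 to 0.60, and the 24-h arrays differed among themselves by 0.33 to 0.80. The part that the slide plays in the differences was not tested apart from the values within slide 2 that follow.

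Of 10678 circRNA probes tested, 261 were higher at 24 h than at 3 h and 236 were lower (limma, Benjamini-Hochberg adjusted p of at most 0.05), which is 2.44% and 2.21% of the probes. The 497 probes called make up 4.65% of those tested. A difference of at least 2 log2 units, or 4-fold, was reached by 50 of the higher and 52 of the lower probes, 0.955% of all. Over all probes the median difference was −0.05 log2 units, and 5% of the probes lay below −1.14 and 5% above 0.98. Called probes that rose had a median log2 level of 6.85 at 3 h and 8.63 at 24 h, and those that fell had 8.41 and 6.69. The rising probes thus started below the median of all probes at 3 h, which was 7.05, and the falling probes started above it. Choosing probes by 24 h minus 3 h favours such starts, and at 24 h, where the median of all probes was 7.03, the order was reversed. Without background subtraction the split was 308 higher and 178 lower, and with a normexp offset of 50 it was 295 and 166.

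**Figure D1:**
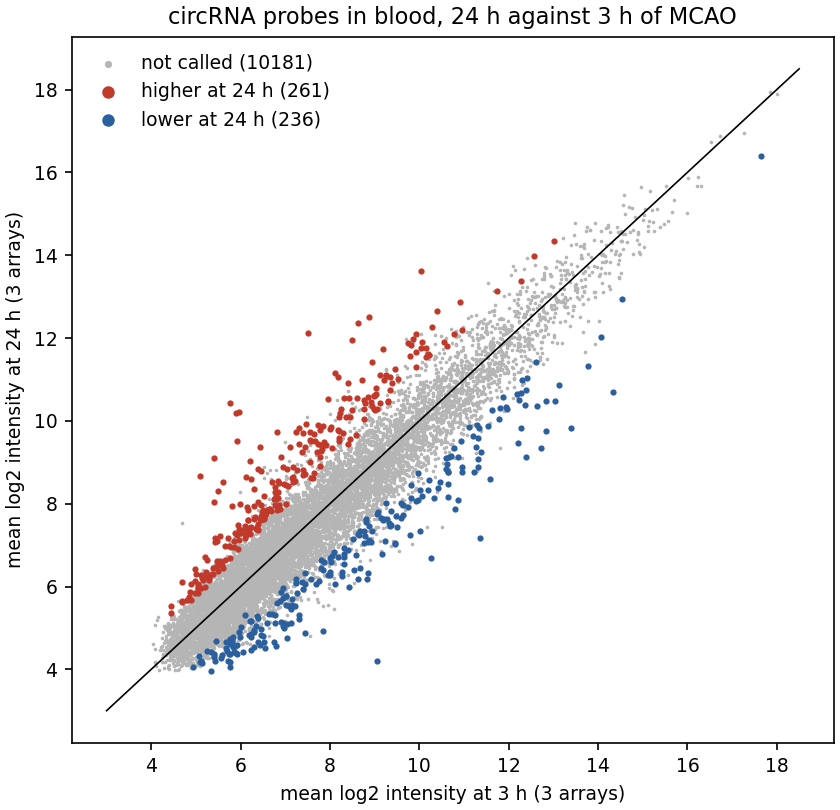
Mean log2 intensity of the 10678 tested probes at 3 h (x axis) and 24 h (y axis), 3 arrays each, with the line of equal levels. Red points are the 261 probes called higher at 24 h and blue points the 236 called lower; the grey points were not called.

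The 24-h and 3-h arrays did not overlap for 496 of the 497 called probes, against 2359 (22.1%) of all tested. Calls were therefore bound to keep their direction within slide 2. Their size there uses the same 24-h arrays and 1 of the 3-h arrays behind the calls, so the choice of probes raises it too. Over all probes the median difference within slide 2 was 0.02 log2 units. The 24-h mean minus the 3-h array of the same slide had a median of 1.45 log2 units for the rising probes, against 1.42 over all arrays, and of −1.13 for the falling probes, against −1.60. A difference of at least 1 log2 unit within slide 2 was seen for 217 of the 261 rising and 155 of the 236 falling probes. The share of all tested probes that reached it was not counted, so these counts are descriptions. With slide as a fixed term in limma, which leaves a single 3-h array for the comparison, no probe passed the adjusted threshold and 1354 had an unadjusted p under 0.05. Against replicates 1 and 2 of 3 h alone, on the other slide, 1092 probes passed, 355 higher and 737 lower.

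**Figure D2:**
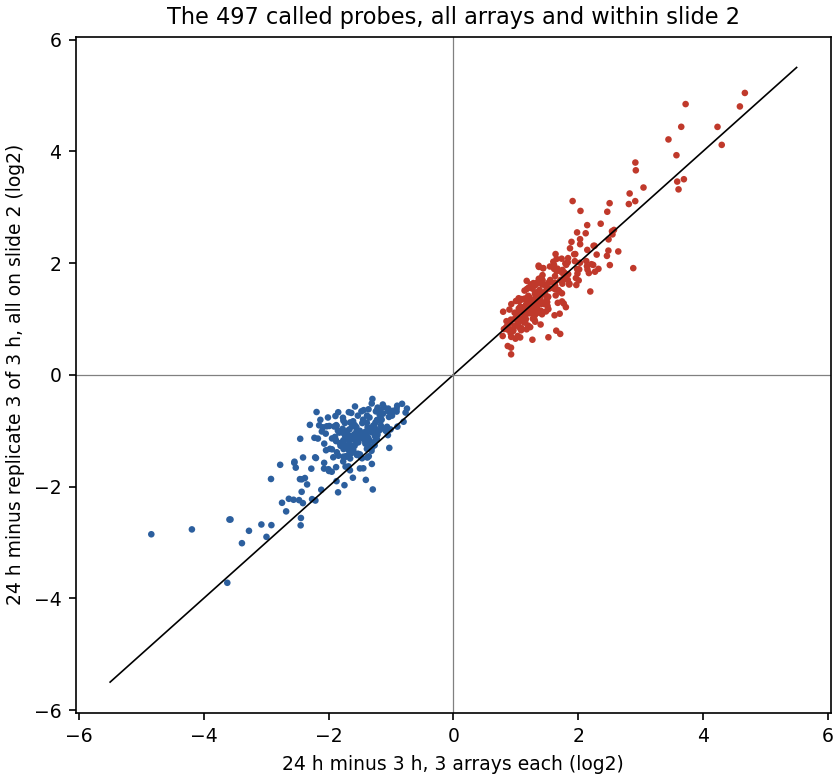
Log2 difference of the called probes, 24 h minus 3 h over all 6 arrays (x axis) and 24 h minus replicate 3 of 3 h, all on slide 2 (y axis). Both axes use the same 24-h arrays and the line marks equal values; falling probes (blue) lie mostly above the line, with smaller falls within slide 2.

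The state at 3 h was read from the comparison with sham, which uses the same 3-h arrays as the comparison of 24 h with 3 h, so that chance deviations of the 3-h arrays enter both with opposite sign. At 3 h, 366 probes (3.43%) were higher than in sham and 87 (0.815%) were lower. Among the 366 raised probes, 49 went on rising, 41 levelled off and 1 fell back. Levelling off means here that 24 h minus 3 h was not called and that its 95% interval lay within 1 log2 unit of 0. For the other 275 the interval was wider and the course stayed undetermined.

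The raised probes were followed to 24 h. Of the 366, 341 were called higher than sham at 24 h too, where 14.1% of all probes were, but both calls use the same 3 sham arrays, and the count is a description. All sham arrays lay on slide 1 and all 24-h arrays on slide 2. Time and slide therefore cannot be told apart in any comparison of 24 h with sham. The 366 also rest on single arrays: 91 were called without replicate 2 of 3 h, 115, 165 and 178 without replicate 2 of sham, replicate 3 of sham and replicate 1 of 3 h, and 542 without replicate 3 of 3 h. The median difference between 24 h and 3 h over the raised probes was 0.64 log2 units, against −0.05 over all probes, and 280 of 366 had a higher mean at 24 h. This median was 1.01 against the 3-h array of slide 2 and 0.46 against the 3-h arrays of slide 1, where 243 of the 366 had a higher mean at 24 h. Replicate 3 was the lowest 3-h array for 247 of the 366. A fit without that array calls its own set of 542 raised probes, so that both the array and the set change. Over that set the median was −0.05, and 41 probes went on rising, 73 levelled off and 74 fell back.

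None of the 87 lowered probes was called higher at 24 h than at 3 h, 6 went on falling, 31 levelled off and 50 stayed undetermined, and 83 of the 87 were called below the same sham arrays at 24 h, where 17.7% of all probes were lower. Of the 10225 probes not called at 3 h, 212 were higher and 229 lower at 24 h than at 3 h, 3282 stayed level and 6502 were undetermined. Of the 212, 206 were called above sham at 24 h, and of the 229, 220 below it, which the choice of probes near sham at 3 h and changed after it largely fixes. In all these calls against sham at 24 h, too, time and slide cannot be told apart.

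**Figure D3:**
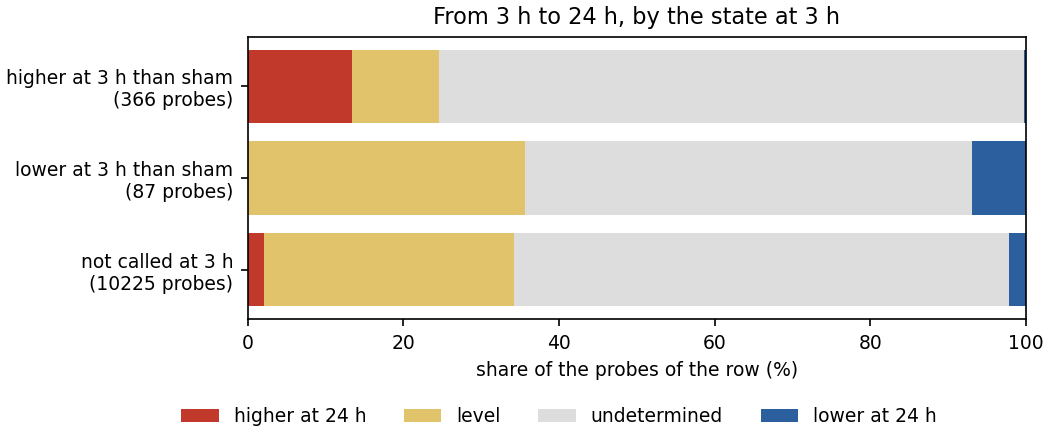
Share of probes (x axis, in percent) that were higher, level, undetermined or lower at 24 h against 3 h, for the 366 probes raised, the 87 lowered and the 10225 not called at 3 h (rows). In this fit of all arrays, continued rises (49 of 366) and levelling off (41 of 366) outnumber the single fall after a rise, and no lowered probe rose. Without replicate 3 of 3 h, 74 of 542 raised probes fell back, 41 went on rising and 73 levelled off.

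Names and places exist here for 902 tested circRNAs, all from the study's own list of circRNAs that differed from sham on these arrays. That list was chosen on the same libraries, so the 255 named circRNAs called here (28.3%, 146 higher and 109 lower) are no independent evidence, and the remaining 242 called probes are known by probe number only. Places are those of the list, in mm10. The circRNAs described next were picked by size of change within each course, together with the circRNAs that were also measured by RT-qPCR.

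A pair of circRNAs from neuronal host genes went on rising from a level already raised at 3 h. Both lie in introns and both are among the 4 named circRNAs with the largest continued rise. The circRNA of Kirrel3, an immunoglobulin-type adhesion molecule of synapses, mmu_circRNA_43956 (chr9:34536915-34538449, + strand), had a log2 intensity of 9.73, 10.69 and 9.68 at 3 h and of 13.85, 14.22 and 12.77 at 24 h. Sham was at 6.15 ± 0.06 (SD, n = 3). All 24-h arrays lay above all 3-h arrays, and the difference of 3.57 ± 0.57 (moderated SE) log2 units, 11.9-fold, had an adjusted p of 0.0105. Within slide 2 it was 3.93. The circRNA of Dab1, the adaptor that carries the reelin signal in migrating neurons, mmu_circRNA_37286 (chr4:103754180-103764967, + strand), had 8.71, 9.68 and 7.51 at 3 h and 13.30, 13.23 and 10.54 at 24 h. Its lowest 24-h array lay less than 1 log2 unit above its highest 3-h array. The difference was 3.72 ± 0.73 log2 units (adjusted p = 0.0178), after a rise of 3.07 over sham at 3 h. Another named circRNA of Dab1, mmu_circRNA_37285, stood 2.60 above sham at 3 h and differed by 0.05 ± 0.54 after it, without a call.

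The other 2 circRNAs with the largest continued rises came from Pcnx, a multi-pass membrane protein, and from a stretch of chromosome 10 with no RefSeq gene. The Pcnx circRNA, mmu_circRNA_19073 (chr12:81894979-81913476), had 7.52, 7.86 and 9.15 at 3 h and 11.23, 11.31 and 10.64 at 24 h. Its 3-h array of slide 2 was the highest of the 3, and its difference of 2.88 ± 0.46 was 1.91 within that slide. mmu_circRNA_22526 (chr10:99402065-99402880) had 8.80, 9.55 and 9.23 at 3 h and 12.18, 12.08 and 10.96 at 24 h, a difference of 2.55 ± 0.50 that was 2.51 within slide 2. Both were raised over sham at 3 h, by 2.32 and 2.96 log2 units.

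The largest rises of all came from circRNAs that were not called against sham at 3 h. The circRNA in an intron of Adck1, which encodes a mitochondrial kinase-like protein, mmu_circRNA_19077 (chr12:88455628-88456716, + strand), had 5.46, 6.43 and 5.38 at 3 h against 4.64 ± 0.23 (SD, n = 3) in sham. At 24 h it had 11.94, 11.20 and 8.14. The groups did not overlap, and the difference of 4.67 ± 0.72 log2 units (25.5-fold, adjusted p = 0.00989) was the largest rise among the 10678 probes. mmu_circRNA_31169, from a place on chromosome 17 without a RefSeq gene (chr17:94694281-94695119), followed with 7.17, 8.08 and 7.31 at 3 h and 12.95, 12.98 and 10.40 at 24 h. In both circRNAs replicate 3 was the lowest array of 24 h. It was the lowest 24-h array for 207 of the 261 rising probes.

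Further rising circRNAs named by size were likewise not called at 3 h. They include the circRNAs of Gfpt2, an enzyme that feeds glucose into hexosamine synthesis (mmu_circRNA_23281, 4.30 ± 0.73), Pkdcc, a secreted tyrosine kinase (mmu_circRNA_016901, 3.69 ± 0.74), Ranbp17, a nuclear transport receptor (mmu_circRNA_23191, 3.61 ± 0.51), and Ncam2, a neural cell adhesion molecule (mmu_circRNA_29958, 3.59 ± 0.70). Another, mmu_circRNA_45047 (3.65 ± 0.63), lies antisense to Manf, a neurotrophic factor of the endoplasmic reticulum, and its 3-h mean was 1.93 log2 units above sham without a call (adjusted p = 0.112). The Ncam2 circRNA had 4.79, 5.25 and 5.22 at 3 h and 10.71, 8.73 and 6.58 at 24 h, so that its 24-h arrays spread over more than 4 log2 units while all lay above 3 h. The Ranbp17 circRNA was tighter, with 5.92, 5.61 and 6.20 at 3 h and 9.93, 10.12 and 8.51 at 24 h. Among probes without a name, ASCRP4001622 rose most, by 4.23 ± 0.78 log2 units (adjusted p = 0.0153).

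Some circRNAs raised at 3 h levelled off by the definition above. Within slide 2 the median difference over these 41 probes was 0.43 log2 units, against 0.07 over all arrays. Among the named ones the narrowest intervals belonged to a circRNA antisense to Ugt2b34, a glucuronosyltransferase gene (mmu_circRNA_38907, chr5:86891227-86905024), and to a circRNA of Nectin3, a cell adhesion molecule (mmu_circRNA_018772, chr16:46436353-46438068). The first stood at 12.37 ± 0.14 (SD, n = 3) in sham, read 14.40, 14.62 and 14.22 on the 3-h arrays, and 14.76, 14.68 and 14.59 on those of 24 h. The difference between 24 h and 3 h was 0.26 with a 95% interval from −0.37 to 0.89, and the arrays overlapped. The Nectin3 circRNA had 13.45, 13.71 and 13.44, then 14.01, 13.65 and 13.56, a difference of 0.21 (−0.44 to 0.86). At 3 h they stood 2.04 and 1.94 log2 units above sham. Next came the circRNAs of Ctc1, of the telomere-binding CST complex (mmu_circRNA_23585, 0.19, −0.51 to 0.90), and of Ccser1 (mmu_circRNA_001686, 0.06, −0.66 to 0.78). The Ccser1 value turned to −0.12 without replicate 3 of 3 h, still within the interval. Within slide 2 the differences were 0.46 (Ugt2b34), 0.30 (Nectin3), 0.02 (Ctc1) and 0.43 (Ccser1).

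All 6 circRNAs lowered at 3 h that went on falling carry names. A pair of probes covers nearly the same ring of Camta1, a calmodulin-binding transcription activator, with a shared start and ends 2 bases apart (chr4:151830417-151835883 and chr4:151830417-151835885). The first, mmu_circRNA_010432, was at 13.75 ± 0.10 (SD, n = 3) in sham, at 12.46, 12.55 and 12.15 at 3 h and at 10.76, 10.41 and 11.08 at 24 h. Each step was of like size, −1.36 from sham to 3 h and −1.64 ± 0.26 from 3 h to 24 h (adjusted p = 0.0105), and the groups did not overlap. The other probe, mmu_circRNA_19351, fell by 1.31 ± 0.26. The circRNA of Elf2, an ETS transcription factor (mmu_circRNA_003023), fell by 1.60 ± 0.33 after a fall of 1.73 at 3 h, and that of Lrrfip2 (mmu_circRNA_45157) by 1.37 ± 0.27 after 1.36, well above background on 2 of the 3 arrays of 24 h. The circRNAs of Cbfb and Vps13d, which the rule did not name, completed the 6.

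No named circRNA fell back after a rise. The single probe that did, ASCRP4008566, was chosen after its value was seen. From a sham mean of 8.91 it stood at 10.51, 10.95 and 10.56 at 3 h, and the arrays of 24 h read 9.75, 9.23 and 8.39. Its difference of −1.55 ± 0.34 had an adjusted p of 0.0252.

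The largest falls between 3 h and 24 h came from probes that were not called against sham at 3 h. Several of them were already far below sham at 5 min, so that no call at 3 h does not mean that they stood unchanged until then. The circRNA of Ankrd42, an ankyrin repeat gene (mmu_circRNA_41878, chr7:92584465-92631662, − strand), was at 13.73 ± 0.78 (SD, n = 3) in sham and at 9.21, 10.02 and 9.75 on the 5-min arrays. It read 12.67, 11.46 and 9.93 on the 3-h arrays and 8.39, 7.28 and 5.81 on those of 24 h. It fell by 4.19 ± 0.71 log2 units, 18.2-fold (adjusted p = 0.0114), and by 2.77 within slide 2, where its 3-h array was the lowest of the 3. At 3 h it was 2.38 log2 units below sham without a call (adjusted p = 0.0837). The unnamed probe ASCRP4011715 fell by 4.84 ± 1.06 (adjusted p = 0.0258), the largest fall of all, from 10.62, 9.47 and 7.07 to 4.27, 4.26 and 4.11, and was well above background on only 1 of the 3 arrays of 24 h.

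The intronic circRNA of Tsc2, whose protein restrains the growth kinase mTOR (mmu_circRNA_012978, chr17:24624819-24625014, − strand), stood out by its level. It had 14.86, 13.69 and 14.42 at 3 h, after 14.99 ± 0.91 (SD, n = 3) in sham and 12.41, 12.58 and 12.48 at 5 min, and 12.38, 10.49 and 9.23 at 24 h. The fall was 3.62 ± 0.65 log2 units (adjusted p = 0.0142) and 3.72 within slide 2. The circRNA of Tnrc6c, a GW182 protein of microRNA silencing (mmu_circRNA_24446, chr11:117700724-117723550, + strand), had 13.31, 12.52 and 12.35 at 3 h and 9.06, 9.26 and 9.70 at 24 h. In sham it was at 13.01 ± 0.31 (SD, n = 3), with 12.04, 12.88 and 12.62 at 5 min. All its arrays of 24 h lay below those of 3 h. The difference of −3.39 ± 0.35 had the smallest adjusted p among the named circRNAs that the rule picked, 0.00247, and was −3.01 within slide 2.

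Other large falls came from host genes of signalling, protein synthesis and membranes. The circRNA of Camk1d, a calcium and calmodulin dependent kinase (mmu_circRNA_32884), fell by 3.08 ± 0.54, from 13.19, 12.88 and 12.43 to 10.69, 9.95 and 8.63. The arrays of the times did not overlap. At 5 min it had 11.21, 10.11 and 10.45, against a sham mean of 13.51. The circRNA of Rpl4, a protein of the large ribosomal subunit (mmu_circRNA_016017), fell by 2.99 ± 0.35, that of Crim1, a membrane protein that binds BMPs (mmu_circRNA_015506), by 3.59 ± 0.88, and that of Tmcc1, a protein of the endoplasmic reticulum (mmu_circRNA_40795), by 3.57 ± 0.74. At 5 min the Rpl4 circRNA stood between 11.88 and 12.17, around its sham mean of 11.99, while that of Crim1, at 8.74 to 9.74, and that of Tmcc1, at 11.90 to 11.95, stood below their sham means of 12.38 and 14.58. Replicate 3 of 3 h was the lowest 3-h array for 195 of the 236 falling probes, which goes with their smaller falls within slide 2.

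**Figure D4:**
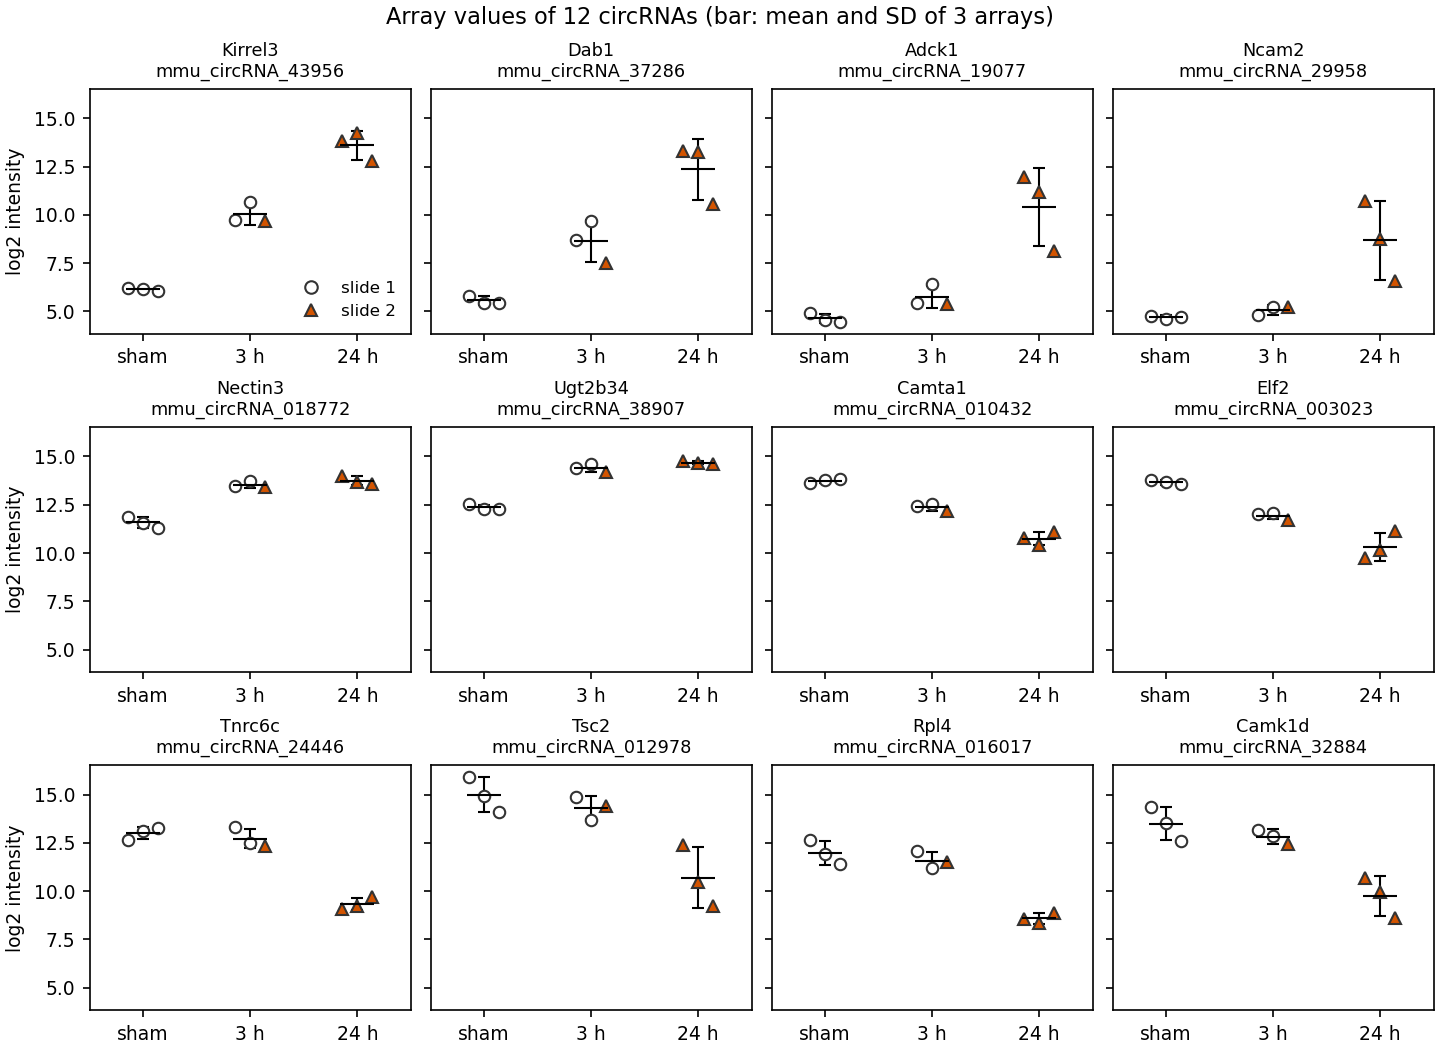
Log2 intensity (y axis) of 12 named circRNAs in sham, at 3 h and at 24 h (x axis), 1 point per array, with the mean and SD of 3 arrays. Open circles are arrays of slide 1 and filled triangles arrays of slide 2; the top row holds rises, the middle row circRNAs that level off (Nectin3, Ugt2b34) or fall at both steps (Camta1, Elf2), and the bottom row falls of circRNAs not called at 3 h.

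The calls rest on few arrays. Of the 25 circRNAs and probes reported by the rule that were called, 1 stayed called without replicate 1 of 3 h, 7 without replicate 2 of 3 h and 1 without replicate 2 of 24 h. The circRNA of Tnrc6c kept its call when any single array was left out, with differences from −3.60 to −3.08.

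Of the 18 circRNAs also measured by RT-qPCR, which come from the study's list too, 5 were called between 3 h and 24 h on the arrays, a share near the 28.3% over all named circRNAs. The circRNAs of Kirrel3 and Dab1 rose, and those of Ankrd42, Tmcc1 and Cep350, a centrosomal protein, fell. The Cep350 circRNA (mmu_circRNA_003795) had 13.10, 11.77 and 11.75 at 3 h and 10.46, 9.11 and 8.81 at 24 h, a fall of 2.75 ± 0.57 (adjusted p = 0.0218).

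Several of the 18 had most of their difference from sham already at 3 h. The circRNA of Tmem178b (mmu_circRNA_40203) was 4.49 log2 units above sham at 3 h, with 11.09, 11.91 and 11.64, and had 13.03, 13.55 and 13.42 at 24 h. The further 1.78 ± 0.62 was not called (adjusted p = 0.114), although the arrays did not overlap. For Cnksr2, a Ras scaffold of synapses (mmu_circRNA_45876), 4.21 over sham at 3 h was followed by 1.50 ± 0.66 (adjusted p = 0.213), and for Psmd12, a proteasome subunit (mmu_circRNA_24344), 4.17 was followed by 1.39 ± 0.62 (adjusted p = 0.217). In both, replicate 3 of 24 h stayed near the 3-h level, at 10.72 and 11.42, while the other 24-h arrays stood between 12.77 and 13.17. The circRNA of Wdr11 (mmu_circRNA_42362) had the same pattern, with 1.05 ± 0.64.

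On the falling side, the circRNA of Phka2, a regulatory subunit of phosphorylase kinase (mmu_circRNA_45921), was 2.83 below sham at 3 h and then 1.59 ± 0.52 lower (adjusted p = 0.0966). Its 3-h array of slide 2, at 10.98, lay within the 24-h range of 10.06 to 11.06, and the difference within slide 2 was −0.40. The circRNAs of Khdrbs1 (mmu_circRNA_37699), Bbs2 (mmu_circRNA_43344) and Rbm33 (mmu_circRNA_38328), all lowered at 3 h, had further differences of −1.27 ± 0.79, −1.47 ± 0.65 and −0.89 ± 0.38, none of them called. The Bbs2 circRNA was well above background on only 1 of the 3 arrays of 24 h. That of Sppl2a (mmu_circRNA_34491) had −1.85 ± 0.58 (adjusted p = 0.0824). The circRNAs of Dido1, Ryr2 and Slc29a2 (mmu_circRNA_35065, mmu_circRNA_26021 and mmu_circRNA_32190), which were not called at 3 h, had −0.52 ± 0.55, −0.52 ± 0.50 and −1.02 ± 0.37, and mmu_circRNA_26316, from chromosome 13, had −0.58 ± 0.55.

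Named circRNAs were then grouped by lists of host genes. The share called among all named circRNAs, 28.3%, is the level to read each list against, since the names come from the study's list. Of the 22 circRNAs on the neuronal adhesion and axon guidance list 7 rose, none fell and 15 were not called (31.8% called), and its median difference was 0.91 log2 units, against 0.31 over the named and −0.05 over all probes. Besides Kirrel3, Dab1 and Ncam2 the rising members were a circRNA of Cntnap5c (1.63 ± 0.29), of Ncam1, a neural cell adhesion molecule (1.62 ± 0.38), of the ephrin receptor Epha3 (1.38 ± 0.34) and of the semaphorin receptor Plxnd1 (1.31 ± 0.35).

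Of 25 circRNAs of ubiquitin and proteasome genes 6 fell and 1 rose, and the share called, 28%, is near that over all named circRNAs. The lower ones came from Trim37, Fbxo30, Birc6, Cul3 and Usp53, and from Ube2o, an enzyme that marks proteins for removal as red cells mature (mmu_circRNA_24439, −1.75 ± 0.32). The median of the list was 0.55 all the same, most of its uncalled members having values above 0, and it was −0.02 within slide 2. Among 18 circRNAs of cilium and centrosome genes, 3 were lower and none higher, and the share called, 16.7%, is below that over all named circRNAs. A pair of the 3 came from overlapping stretches of Cep128 and the third from Cep350. The median of this list was above 0, at 0.32 log2 units, and 0.895 within slide 2.

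Most of the remaining lists held calls in both directions. Calcium handling had 3 higher and 2 lower of 22: Cacng3 (2.24 ± 0.50), the ryanodine receptor Ryr3 (2.03 ± 0.51) and the kinase Ptk2b (2.00 ± 0.36) rose, while Camk1d and Stim1, the sensor of calcium stores (−2.00 ± 0.42), fell. Ion channels had 4 higher (among them Scn3a, Kcng3 and Kcnq3) and 2 lower (among them Kcnq5) of 21. Kinases of growth factor, MAPK and Hippo signalling had 4 higher and 2 lower of 15. The circRNA of Erbb3 (−2.26 ± 0.46) was among those that fell, and Pik3c2a (2.21 ± 0.36), Prkce (2.57 ± 0.60) and Stk3 (1.60 ± 0.39) rose, as did Pak1ip1, which the list took in by spelling and which is no kinase. Of 21 circRNAs of the glutamatergic synapse 1 rose, that of the receptor Grm3 (1.95 ± 0.37), and none fell, although the median of the list was 0.82.

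Vesicle traffic had 4 higher and 5 lower of 34, chromatin regulators 3 higher (Kdm5a, Kdm2b, Ep400) and 2 lower (Nsd3, Kat7) of 24, and DNA replication and repair 1 higher (Smc4) and 1 lower (Rad51c) of 9. Matrix genes had 2 higher (Adam17, Col19a1) and 1 lower (Adam32) of 6. Hypoxia and glycolysis had no call among 10 circRNAs, those of Hif1a (−2.48 ± 0.90, adjusted p = 0.13) and Hk1 (1.71 ± 0.52, adjusted p = 0.0742) included. The 4 circRNAs of innate immune genes and the 1 of fatty acid metabolism were not called. Like Pak1ip1, some uncalled members entered by the spelling of their names and do not belong to their list: Dnmt3a, Snapc1 and Sec11a under vesicle traffic, Enox1 under hypoxia, Smco2 under DNA replication and repair, and Ttc3, Ttc13, Ttc19, Ttc39b and Ttc39c under cilium. They are included in the totals.

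**Figure D5:**
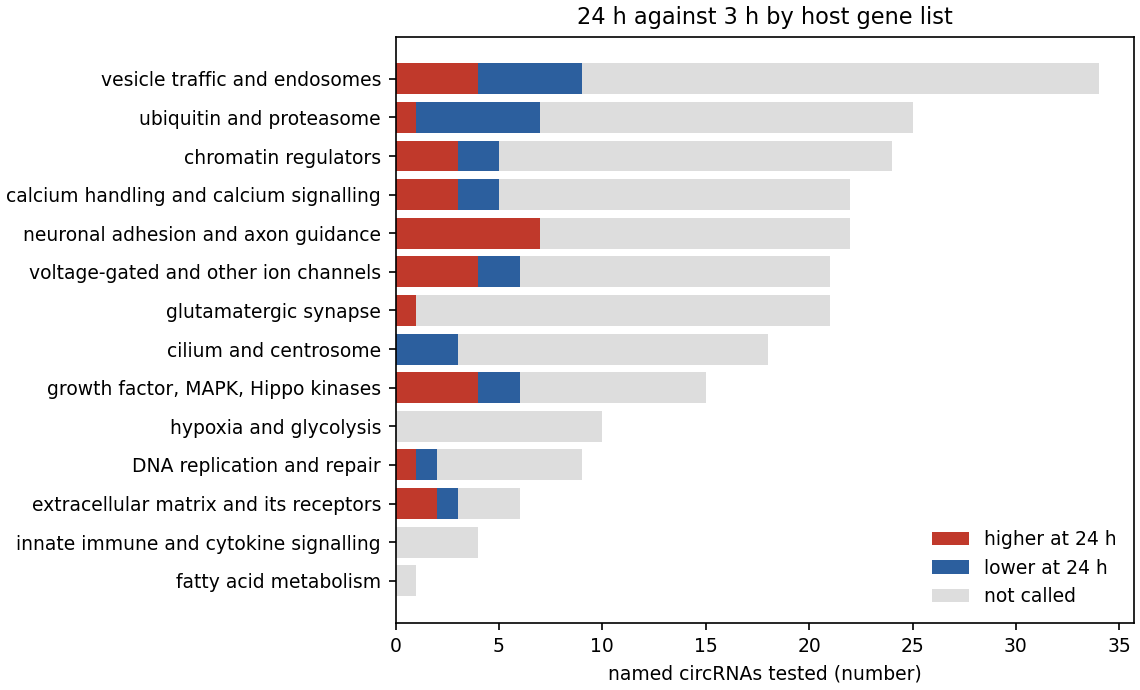
Number of named circRNAs (x axis) higher, lower or not called at 24 h against 3 h in each of 14 host gene lists (rows). Neuronal adhesion and axon guidance has 7 rises and no fall of 22, and ubiquitin and proteasome 6 falls and 1 rise of 25.

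Marker genes of blood cells could be read only where the study's list holds a circRNA of them, so that the label of whole blood could not be checked against its defining markers. No circRNA of erythroid, neutrophil or natural killer cell markers carries a name. Both circRNAs of Adgre1, which encodes the macrophage marker F4/80, rose: mmu_circRNA_19193 by 2.14 ± 0.40 (adjusted p = 0.0166) and mmu_circRNA_30673 by 1.87 ± 0.43 (adjusted p = 0.0296). Both start at nearly the same base (chr17:57419319 and chr17:57419321). A pair of F13a1 circRNAs, from a gene of platelets and monocytes, had −0.53 ± 0.38 and −0.33 ± 0.37, and the 2 of Ralgps2, on the B cell list, −1.01 ± 0.39 and −0.50 ± 0.35, none called. The circRNA of Ets1, on the T cell list (mmu_circRNA_43955), had −0.92 ± 0.58 and was not called (adjusted p = 0.392). Of 13 circRNAs of neuronal marker genes 2 rose, those of Kirrel3 and Dab1, and none fell; no circRNA of astrocyte or oligodendrocyte markers carries a name. The part of cell numbers in these differences was not tested.

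Several host genes gave more than 1 circRNA. The named circRNAs come from 755 host genes, of which 81 gave at least 2. In 12 host genes at least 2 were called. They fell together in 7 (among them Camta1, Cep128, Gm20754, Kansl1, St7 and Zer1), and rose together in 3 (Adgre1, BC004004 and Cdc14b). Rings of 1 gene that share an end overlap in sequence, as in Kansl1 and Zer1, where the pairs differ by at most 2 bases at either end, so they are not separate measurements.

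Tnrc6c and Ubxn1 gave circRNAs that went opposite ways. In Tnrc6c, mmu_circRNA_24446 fell as described, while mmu_circRNA_24450, from exons further downstream (chr11:117735971-117740009), went from 6.86, 7.35 and 7.50 at 3 h to 10.38, 10.09 and 8.69 at 24 h. It rose by 2.48 ± 0.44 (adjusted p = 0.0138), and the stretches do not overlap. In Ubxn1, a ubiquitin-binding protein gene, mmu_circRNA_32230 (chr19:8873513-8873846) fell by 2.21 ± 0.36 and mmu_circRNA_004768 (chr19:8874187-8874255) rose by 1.80 ± 0.47 (adjusted p = 0.047). In Gm20754, 3 circRNAs with a common start (chr3:73277865) fell by 1.89 to 2.15, and another that starts upstream, mmu_circRNA_35586, differed by 0.78 ± 0.47 without a call. Beside the rise of 4.67 in Adck1 stood an uncalled circRNA at −0.03. Pcnx gave 3 circRNAs, the called one at 2.88 and the lowest at −1.35, without a call. The 3 circRNAs of Elf2, of which 1 was called, ran from −1.60 to −1.07.

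Exonic circRNAs were the largest class among the named circRNAs, 95 of 146 that rose (65.1%) and 80 of 109 that fell (73.4%), against 663 of 902 (73.5%). Of the 20 antisense circRNAs 9 rose and none fell, and of the 20 intergenic ones 6 rose and none fell. The intronic class had 9 higher and 11 lower of 60. The genomic span had a median of 8.48 kb in the rising, 8.86 kb in the falling and 10.1 kb in all named circRNAs. These counts are descriptions of a list selected on these arrays.

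By the scanner software, 9728 of 14236 circRNA probes were well above background on all 6 arrays and 714 on none. A signal at 24 h on all 3 arrays and at 3 h on none was seen for 28 probes, none of them tested, and the reverse for 94, of which 39 were tested. Of the rising probes 260 of 261 were well above background on every 3-h array, and of the falling probes 189 of 236 on every 24-h array and 6 on none.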

How the data were processed

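Blood RNA of 12 mice was hybridised to one-colour Arraystar circRNA arrays. For each array the authors deposited scanner output with the linear intensity of every spot, its local background and a processed signal, and for the series a table of log2 values, which the authors had quantile normalized; their methods name an adaptive background correction, and no correction tried here gave the table's values, so its background treatment is unknown. It served as an alternative. Slides were read from the file headers.

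In R 4.3.3, limma 3.58.1 subtracted background from the spot medians (normexp, offset 0) and applied quantile normalization before values were logged to base 2. Spots marked as outliers were set to missing. A probe was tested if it reached 1.1 times the 95th percentile of 77 negative control spots on all 12 arrays. The 4 groups were fitted in a single limma model with a mean-variance trend (8 residual and 5.05 prior degrees of freedom), with two-sided moderated tests and Benjamini-Hochberg adjustment within each comparison. SE is limma's moderated standard error. The p-values set a difference against the spread between mice within groups, pooled over the 4 groups. That spread was not equal, with a median SD of 0.31 log2 units at 3 h and 0.46 at 24 h. At 3 h it also holds the difference between the slides. The number of arrays limits the precision. The procedure was tested on simulated data with independent noise, the same spread in all groups and no slide difference. Such data cannot show how the slides or an unequal spread act on the calls.

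The array files hold no circRNA names. Each of 903 circRNAs of the study's list was matched to the single probe whose mean level and fold change against sham equalled those listed (largest difference 0.000499, next probe at least 0.008 away); 1 of them was not tested. Host genes were checked against RefSeq (GRCm38.p6): 856 list symbols were found at the place, allowing for spelling, 34 were not and 13 places hold no gene. Fold changes and p-values in that list are the authors' own comparisons and were used for matching only. No junction sequence was available here.

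Named circRNAs are the 8 largest called rises and 8 largest called falls whose arrays did not overlap, up to 4 per course after a rise or a fall at 3 h, the 18 RT-qPCR circRNAs, and the unnamed probe with the largest rise and fall. A few circRNAs that these rules take in are not reported here. The members, lists and rules were chosen with earlier results of these data known.

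Alternatives were other background corrections, scalings and probe filters, the deposited table, other variance models, array weights (statmod 1.5.0), slide as a fixed term or random block, a replicate block, and each array left out. Replicate numbers are shared across groups, but the deviations of same-numbered 3-h and 24-h arrays correlated at −0.52, 0.42 and −0.16, so the numbers were not taken to pair mice.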

Additional observations from a re-analysis of the deposited data

How the results depend on the processing

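The 497 calls depended on the model and on single arrays, and the causes were not tested. With slide as a fixed term, within slide 2 and in a fit of the 6 arrays alone (4 residual degrees of freedom), 0 probes were called in either direction, and 1796 had an unadjusted p under 0.05 in the last. With slide as a random block 151 probes were called (86 higher, 65 lower), across slides only 1092 (737 lower), and with array weights, which ran from 0.0916 to 21.4, 5847 (2683 higher, 3164 lower). Leaving out 1 array gave 1 to 1082 calls, 0 to 418 higher and 1 to 732 lower: 1 without replicate 1 of 3 h or replicate 2 of 24 h, 21 without replicate 2 of 3 h, 190 without replicate 2 of sham, 212 without replicate 3 of 5 min, 862 without replicate 1 of 24 h and 1082 without replicate 3 of 3 h. The 49 continued rises became 0 with the slide term, 18 with the random block and 1059 with array weights, and 0 to 109 without 1 array. The 41 that levelled off became 24 with the slide term, 26 with the processed signal, 62 with cyclic loess and 953 with array weights, and 4 to 73 without 1 array. The 366 raised probes became 2731 with array weights and 91 to 542 without 1 array. The 6 continued falls became 0 with the slide term and 0 to 25 without 1 array, the 31 falls that levelled off 12 and 3 to 85, the 212 rises of probes not called at 3 h 0 and 0 to 357, and the 229 such falls 0 and 1 to 647. The lowest of these ranges came without replicate 1 or 2 of 3 h, replicate 2 of sham or replicate 2 of 24 h. The highest came without replicate 1 of 24 h or replicate 3 of 3 h, except for the 109 continued rises, which came without replicate 3 of 24 h. The single fall after a rise became 670 with array weights and 0 to 74 without 1 array, with the 74 reached without replicate 3 of 3 h. Other background corrections, scalings, filters and variance models gave 357 to 506 calls, and cyclic loess 169 higher. The median difference over all probes ran from −0.12 to 0.13 and moved most, by over 0.1, with the processed signal. The replicate block gave 444 calls, 229 higher and 215 lower, 405 of them among the 497; the shared numbers mark no pairing and it changed no call of a named circRNA. The value that changed sign was that of mmu_circRNA_001686 (−0.055 with array weights, −0.12 across slides only, and −0.12 to 0.21 without 1 array, lowest without replicate 3 of 3 h), which was not called over all arrays.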
